A study of Saccharomyces cerevisiae with 24 samples.

Results

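The wild-type wine yeast strain V5 was followed while it used up the glucose of its medium. RNA of V5 was taken at residual glucose concentrations of 38.4, 35.0, 25.5, 24.4, 10.5 and 7.4 g/L, and these 6 RNA samples, found by strain and title, are 6 of the 12 in the study. The other 6 are from V5.TM6*P, taken between 36.5 and 5.6 g/L. Every RNA was put on 2 filter arrays, so that V5 has 12 of the 24 arrays. V5 is of mating type a with ura3 and gal mutations, made prototrophic by integrating URA3. V5.TM6*P shares that background, lacks the hexose transporter genes HXT1 to HXT7 and takes up glucose through a chimera of HXT1 and HXT7. Both grew in bioreactors on defined minimal medium with no other sugar than glucose. Each strain was grown in a pair of independent fermentations, and the labels tie no sample to either. The n given below therefore counts RNA samples and not cultures, and p-values measure the spread between these samples only. Residual glucose went down with the age of the culture, so glucose, time and cell density cannot be told apart. The serial numbers of the V5 arrays also ran in the order of falling glucose and cannot be told apart from it.

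Glucose repression is the program by which Saccharomyces cerevisiae, given ample glucose, keeps the genes for respiration and for other carbon sources at low levels and ferments. The Snf1 kinase and the Mig1 repressor form its main pathway, and separate membrane sensors and the protein kinase A pathway adjust the hexose transporters and growth. When glucose runs low, repression is relieved and high-affinity transporters, hexokinase 1, mitochondrial enzymes and storage carbohydrate enzymes are made.

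Signal is given on the log2 scale after subtracting the median of each array, so 0 is the median spot of an array and 1 unit is a 2-fold difference. The change of a probe is its fitted log2 difference from 38.4 to 7.4 g/L in V5, and a positive change means more signal at low glucose. Where a fit left out samples, the slope was still scaled to this full range. A line without the samples at an end is thus extended beyond the remaining ones. The change was tested with limma, and a call needed an adjusted p under 0.05 by the method of Benjamini and Hochberg, with 6330 probes in the adjustment. SE and p use the spread of all 12 RNA samples of both strains, while the V5 change itself comes from the 6 of V5. Median net intensity was 12.18 to 20.32 on the V5 arrays over a median background of 12.11 to 30.52, and the 2 arrays of a V5 sample correlated across probes at 0.761 to 0.856. Names could be given to 1053 probes, and they belong to genes that the study listed for a difference between its strains, so they are a selected set. Genes without a named probe, among them HXK2, MIG1, RGS2, ADH7 and CHA4, are not analysed here.

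Of 6330 probes, 1 was called in V5 (0.0158%), HXK1, and it rose as glucose was consumed. No probe was called lower. At an unadjusted p under 0.05 there were 353 probes higher (5.58%) and 413 lower (6.52%) at low glucose, 766 in all (12.1%). Among the 1053 named probes the same criterion gave 128 higher (12.2%) and 66 lower (6.27%). The median change was -0.02 over all probes, with quartiles of -0.41 and 0.35 and a median standard error of 0.39, and it was 0.08 over the named probes. Counts of list members at the unadjusted criterion below are to be read against these shares. Counts of positive and negative changes are to be read against these medians, as the named probes lean to positive changes. Both low-glucose samples, at 10.5 and 7.4 g/L, lay above the other 4 for 10.5% of all probes and 18.4% of named probes, and below them for 10.2% and 8.55%. A second limma fit took all 24 arrays, with the RNA sample as a random block. The estimated correlation of the arrays of an RNA sample was 0.045, so this fit counted them as nearly independent. Its calls thus do not rest on more RNA samples. This fit called 61 probes higher and 81 lower in V5, of which 40 and 15 were named (3.8% and 1.42% of the named probes).

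Among the named probes, those of enzymes that phosphorylate glucose showed the clearest V5 trend. HXK2 had no named probe, and 6 probes without a name had the same adjusted p as GLK1 and EMI2 (limma). HXK1 encodes hexokinase 1, the isoenzyme made when glucose is scarce, GLK1 encodes glucokinase and EMI2 encodes a paralog of glucokinase. All 3 genes lay highest in the samples at 10.5 and 7.4 g/L and lowest at 38.4 g/L. The study's list of binding sites gives each of them upstream sites for the repressor Mig1, found by inspection. From earlier experiments the study lists HXK1 and EMI2, but not GLK1, as dependent on Mig1. Whether Mig1 acts on these genes was not tested here. The sites are shown because these genes lead the V5 trend among the named probes. Capitals mark the GC box and lower case the stretch that follows it.
HXK1 site 1: CCCCGGatttt
HXK1 site 2: CCCCACtatt
HXK1 site 3: CCCCGGaaattttatta
GLK1 site: CCCCGCattataa
EMI2 site: CCCCGCgtttttt
The GC boxes of GLK1 and EMI2 have the same letters. The study's other searches list further sites in these and other genes, which are not shown here.

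HXK1 (YFR053C, chromosome VI) had log2 signals of 1.30, 2.73, 2.89, 3.30, 5.59 and 5.34 in order of falling glucose. The samples at 10.5 and 7.4 g/L lay above the other 4, and the sample at 38.4 g/L lay below the rest. The 2 arrays of a sample stayed close, with 1.45 and 1.14 at 38.4 g/L and 5.56 and 5.12 at 7.4 g/L. HXK1 rose by 3.93 ± 0.44 (SE, n = 6), a 15.3-fold change (limma, adjusted p = 0.0198). This call depends on several samples. Without the V5 sample at 38.4, 24.4, 10.5 or 7.4 g/L the adjusted p was 0.104, 0.0597, 0.128 and 0.0518, while the change stayed between 3.57 and 4.23. Without the V5.TM6*P sample at 26.3, 25.1, 13.5 or 5.6 g/L, which only adds to the estimate of spread, it was 0.0587, 0.0615, 0.0525 and 0.0562. In the limma fit of the 6 V5 samples alone the adjusted p of HXK1 was 0.29, and no probe was called.

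EMI2 (YDR516C, chromosome IV) had log2 signals of -0.63, 0.34, 0.71, 0.66, 1.40 and 1.74 in order of falling glucose, a change of 1.96 ± 0.28 (SE, n = 6; limma, adjusted p = 0.0583). GLK1 (YCL040W, chromosome III) had -0.34, 0.42, 1.02, 0.79, 2.52 and 2.23, a change of 2.62 ± 0.40 (adjusted p = 0.0583, limma). In both the samples at 10.5 and 7.4 g/L did not overlap with the other 4, and neither passed the threshold. The adjusted p of limma varied with the setting. On the authors' table of processed values it was 0.0116 for EMI2 and 0.0452 for GLK1, and in the fit of the 6 V5 samples alone 0.299 and 0.29. Leaving out 1 RNA sample gave 0.0235 to 0.145 for EMI2 and 0.0699 to 0.252 for GLK1. With normexp background correction the changes were 0.64 for EMI2 and 1.02 for GLK1. The samples at 25.5 and 24.4 g/L lay between the ends of the series for all 3 genes. Probes of related genes may share signal, which was not tested.

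**Figure D1:**
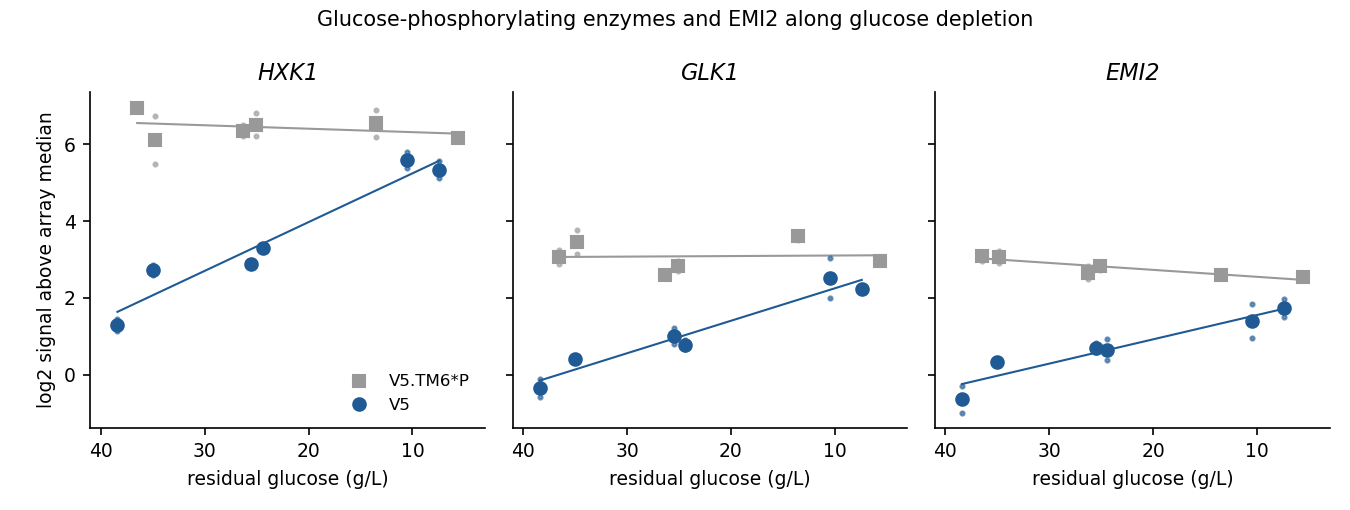
Log2 signal above the array median (y) against residual glucose in g/L (x, falling to the right) for HXK1, GLK1 and EMI2, with large markers for RNA samples, small dots for their 2 arrays and lines for the limma fit of each strain. V5 climbs from 1.30 to 5.34 for HXK1, from -0.34 to 2.23 for GLK1 and from -0.63 to 1.74 for EMI2, while V5.TM6*P stays near its own level.

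The inspected sites shown here are part of the study's Mig1 sites, which it listed for genes higher in V5.TM6*P, so no count over Mig1 genes is drawn from them. CYB2 (YML054C, chromosome XIII), the L-lactate dehydrogenase of mitochondria, has inspected sites too and a V5 change of 1.95. They are shown since they differ from those above in the letters after the box.
CYB2 site 1: CCCCACgctttt
CYB2 site 2: CCCCACtcaagt
CYB2 site 3: CCCCGGtata

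Named probes covered 10 of 20 hexose transporter and sensor genes, and their changes went in both directions. HXT7, a high-affinity transporter, had log2 signals of 6.33, 6.95, 6.64, 6.83, 7.53 and 8.11 in order of falling glucose. Its samples at 10.5 and 7.4 g/L lay above the other 4, with a change of 1.43 ± 0.30 (SE, n = 6; limma, adjusted p = 0.119). HXT6, nearly identical to HXT7 in sequence so that the probes cannot be taken as separate, had 1.93, 1.96, 2.00, 2.02, 2.63 and 3.20, flat over the first 4 samples and higher in the last 2. Its change was 1.14 ± 0.30 (adjusted p = 0.162, limma). HXT1, the low-affinity transporter used at high glucose, ran the other way with 6.20, 5.87, 5.97, 5.50, 4.12 and 4.93. Its 2 low-glucose samples lay below all others, with a change of -1.68 ± 0.36 (adjusted p = 0.121, limma). The name of the HXT1 probe rests on its factor and place alone. The probe of HXT3, a low-affinity transporter active over a wide range of glucose, stayed between 6.00 and 6.51 in all 6 samples, with a change of -0.05 ± 0.27. HXT1 to HXT7 are deleted in V5.TM6*P, yet its arrays gave 5.16 to 5.93 on the HXT3 probe. The study expects cross-reactivity among HXT1 to HXT7 on the array. The probes of these genes therefore cannot be read as separate genes, and a flat probe does not show a flat HXT3.

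HXT4 and HXT2, of intermediate or high affinity, each had a change of -0.14. SNF3, the sensor of low glucose, had a change of 0.61, and its samples at 10.5 and 7.4 g/L lay above the rest. HXT15, HXT13 and HXT16 had dim signals. HXT15 had a change of -2.56 from the scanner values but 1.81 from the authors' table, and HXT13 had 2.78 and -0.13, so that no direction can be given. Over the list, 3 members met the unadjusted criterion in the higher direction, HXT7, HXT6 and HXT13, and 2 in the lower, HXT1 and HXT15. These counts include the genes without a direction, HXT13 and HXT15, and HXT6 and HXT7, which cannot be taken as separate. The median change of the list was 0.28. Without the V5 sample at 7.4 g/L that median was 0.14, and without the one at 35.0 g/L it was 0.48.

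**Figure D2:**
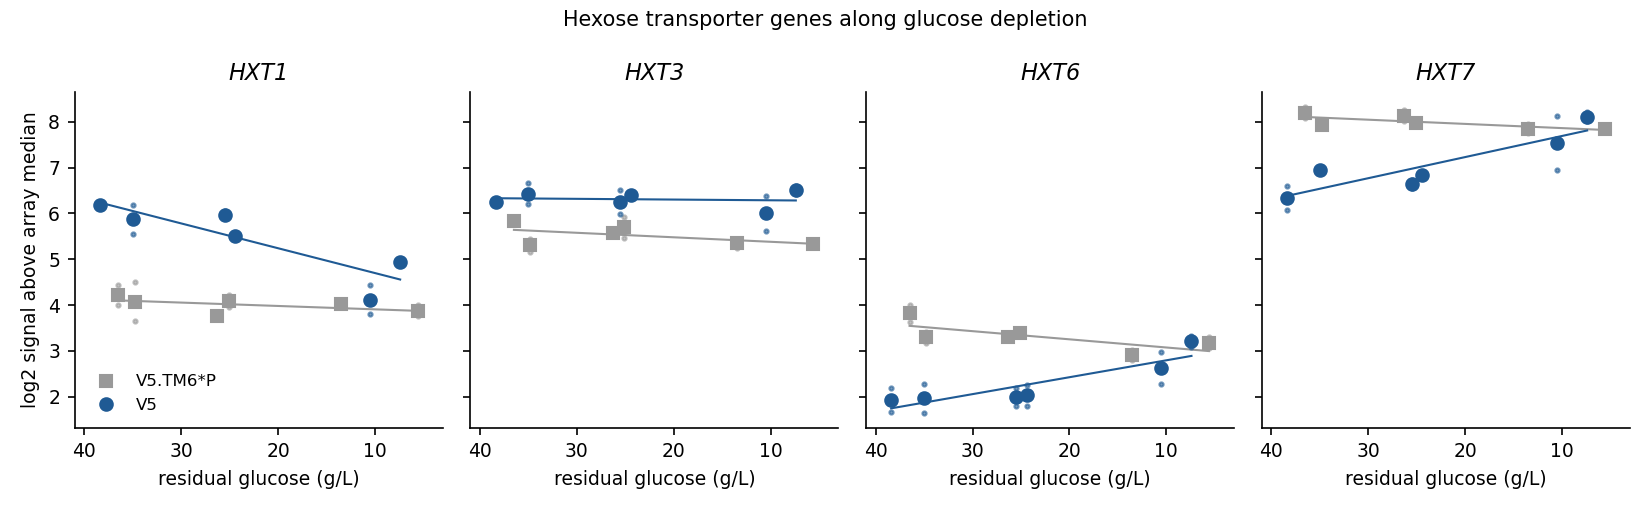
Log2 signal above the array median (y) against residual glucose in g/L (x, falling to the right) for HXT1, HXT3, HXT6 and HXT7, with large markers for RNA samples, small dots for single arrays and limma lines. In V5, HXT7 goes from 6.33 to 8.11, HXT1 from 6.20 to 4.93 and HXT3 stays between 6.00 and 6.51.

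No gene of glycolysis was called, and most changes were negative. Of 8 named members of 14, the change was negative for 7 and the median was -0.76, with 4 below the unadjusted criterion in the lower direction and 0 in the higher. ENO2, the main enolase in glucose, had log2 signals of 6.78, 6.94, 6.55, 6.59, 5.82 and 6.16 and a change of -0.94 ± 0.29. CDC19, the main pyruvate kinase, had 3.68, 3.45, 3.05, 3.47, 2.01 and 2.90 and a change of -1.20 ± 0.41. For both, and for TPI1 (-0.79), PFK1 (-0.73) and ENO1 (-0.96), the 2 low-glucose samples lay below the other 4. With the authors' table the changes of TPI1 and PFK1 were -0.51 and -0.27. The sample at 10.5 g/L was the lowest of the 6 for 6 of the 8 genes. Without it the median change of the list was -0.43. PYK2, the pyruvate kinase of low glycolytic flux, was the only positive member at 0.80, and with the authors' table it had -0.11. TDH2 and TDH3, glyceraldehyde-3-phosphate dehydrogenases, had changes of -0.53 and -0.39 with overlapping samples, and -0.24 and -0.22 with the authors' table. The probes of TDH2 and TDH3, and those of ENO1 and ENO2, may share signal, which was not tested. The counts of this list may therefore not be of separate genes.

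Of the fermentation and glycerol genes, 4 had a named probe. PDC1 and PDC5, the pyruvate decarboxylases, had changes of -0.10 ± 0.39 and 0.21 ± 0.48. GPD1, the glycerol-3-phosphate dehydrogenase of glycerol production, had log2 signals of 4.09, 3.73, 4.01, 4.40, 4.80 and 5.17, and both low-glucose samples lay above the others. Its change was 1.21 ± 0.30 (SE, n = 6; limma, adjusted p = 0.154). YDL023C, a reading frame marked dubious next to GPD1 in ORF order, had a change of 1.90 ± 0.32 (adjusted p = 0.0757, limma), which was 0.99 with the authors' table, and whether both probes read the same transcript was not tested.

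Mitochondrial metabolism had positive changes in most of its named genes, none of them called. In the TCA cycle, 13 of 15 named members had a positive change and 7 met the unadjusted criterion in the higher direction and 0 in the lower, with a median of 0.64. SDH4, a membrane subunit of succinate dehydrogenase, had log2 signals of 2.93, 2.86, 2.72, 3.48, 4.44 and 3.95, a change of 1.45 ± 0.41 (SE, n = 6; limma, adjusted p = 0.187). CIT1, the mitochondrial citrate synthase, had 1.55, 1.72, 1.03, 2.31, 2.89 and 2.65, a change of 1.32 ± 0.43. KGD2, a subunit of alpha-ketoglutarate dehydrogenase, had 0.64, 0.58, 0.95, 1.08, 1.28 and 1.57, a change of 0.91 ± 0.27. In 10 of the 15 genes both low-glucose samples lay above the other 4, against 10.5% of all probes and 18.4% of named probes. IDH1 (-0.01) and ACO1 (0.08) were near 0.

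Of 33 named members of the respiratory chain and ATP synthase list, 32 had a positive change, with a median of 0.54 and a range of -0.18 to 1.48. The unadjusted criterion was met by 13 in the higher and 0 in the lower direction, and in 18 the low-glucose samples lay above the other 4. In the fit of all arrays, which counted the arrays of an RNA sample as nearly independent, 3 of the 33 were called higher. The shares for these calls were 0.964% of all and 3.8% of named probes, and for such sample orders 10.5% and 18.4%. CYT1, cytochrome c1, had log2 signals of 0.70, 1.15, 1.23, 1.71, 1.66 and 2.29, a change of 1.23 ± 0.28 (SE, n = 6; limma, adjusted p = 0.14). ATP5, a stalk subunit of ATP synthase, had 4.28, 4.02, 4.26, 4.31, 4.98 and 5.06, a change of 0.98 ± 0.23. COX6 and QCR8, subunits of cytochrome c oxidase and of the bc1 complex, had changes of 1.00 and 1.07. CYT1 stepped up at each level, whereas ATP5 was level over the first 4 samples. ATP1, the alpha subunit of ATP synthase, was the only negative member at -0.18, and CYC1, iso-1-cytochrome c, had 0.10 ± 0.36.

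Mitochondrial ribosomal proteins had smaller changes. The change was positive for 40 of 43 and had a median of 0.35, and 8 met the unadjusted criterion in the higher direction and 0 in the lower. MRPL22 had log2 signals of 4.04, 4.05, 4.32, 4.54, 4.76 and 4.77, ordered with glucose at every step, with a change of 0.79 ± 0.22 (limma, adjusted p = 0.185) that was 0.46 with the authors' table. The sample at 7.4 g/L was the highest of the 6 for 25 of the 43 genes. Of 38 named cytosolic ribosomal proteins, 16 had a positive and 22 a negative change, and 0 met the unadjusted criterion. Their median was -0.08, and 0.11 without the V5 sample at 38.4 g/L.

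Genes for the use of other carbon sources varied from gene to gene. Of 16 named, 7 met the unadjusted criterion in the higher and 1 in the lower direction. The median change was 0.62, and 0.38 without the V5 sample at 35.0 g/L. DSF1, of the mannitol dehydrogenase family, had log2 signals of -1.55, -1.80, -1.25, -1.04, 0.43 and 0.11, with a gap between the last 2 samples and the first 4. Its change was 2.14 ± 0.41 (SE, n = 6; limma, adjusted p = 0.0931). CYB2 had 0.88, 0.71, 1.13, 1.29, 2.64 and 2.45, the same step between 24.4 and 10.5 g/L (change 1.95 ± 0.49, adjusted p = 0.156, limma). CRC1, the mitochondrial carnitine carrier, had a change of 1.56 ± 0.34, which was 0.66 with the authors' table, and MAL31, a maltose permease, 1.28 ± 0.41. STL1, the glycerol symporter, had -1.92, -3.90, -3.63, -2.47, -0.82 and 0.43, a change of 3.10 ± 0.87 with 1 spot value under the floor. The STL1 change was 2.01 to 4.82 with 1 sample left out and 2.05 with the authors' table. The line through the first 4 samples alone, extended to 7.4 g/L, gave -0.94. GUT1 and GUT2, which bring glycerol into glycolysis, had changes of 0.88 and 0.87.

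Gluconeogenesis and the glyoxylate cycle are needed to make sugar from ethanol and acetate. Of 9 named members, 1 met the unadjusted criterion, IDP2, the cytosolic isocitrate dehydrogenase, with a change of 0.86 ± 0.38 that was 0.46 with the authors' table and 0.39 to 1.13 with 1 sample left out. ICL1, isocitrate lyase, had 0.46 ± 0.34. Malate synthase (MLS1), phosphoenolpyruvate carboxykinase (PCK1) and fructose-1,6-bisphosphatase (FBP1) had changes of -0.23 ± 0.45, -0.66 ± 0.61 and -1.81 ± 1.03, but 0.25, 0.10 and 2.76 with the authors' table, so that no direction can be given for these genes. JEN1 and SUC2, lactate permease and invertase, had overlapping samples with changes of 1.64 ± 0.93 and 0.34 ± 0.53, which were 0.27 and 0.86 with the authors' table.

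Regulators were sparsely named, 8 of 39 on the list. HAP4, the activating subunit of the Hap complex that drives respiratory genes, had log2 signals of 0.39, 0.13, -0.01, 0.15, 0.54 and 0.58, a change of 0.35 ± 0.32 that was 0.14 with the authors' table. HAP5 had 0.31 ± 0.29. REG2, a regulatory subunit of the Glc7 phosphatase, had -1.66, -0.53, -0.67, -0.93, -0.19 and 0.05, a change of 1.23 ± 0.37 (limma, adjusted p = 0.203) that was 0.58 with the authors' table. MIG3, a relative of MIG1, had -0.16, -0.31, -1.16, -1.09, -1.56 and -2.96, with the low-glucose samples below the others and a change of -2.32 ± 1.06 that was -1.21 with the authors' table. MIG2 had a change of -2.19 ± 0.79, but 1 of its values lay under the floor and the authors' table gave 0.10. CAT8, the activator of gluconeogenic genes, lay between -1.89 and -1.16 in 5 samples and at -4.66 at 7.4 g/L, where 1 spot value was under the floor.

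Trehalose, glycogen and stress genes had a median change of 1.14 over 10 named members of 27, and 9 changes were positive. NTH2, a trehalase paralog, had log2 signals of 0.39, 0.53, 0.96, 1.07, 2.17 and 1.46, a change of 1.46 ± 0.34 (limma, adjusted p = 0.142). GSY2 and GSY1, the glycogen synthases, had changes of 1.84 ± 0.53 and 1.69 ± 0.62, and GSY2 had 0.69 with the authors' table. UGP1, which makes the UDP-glucose that these enzymes use, had 4.94, 4.33, 4.13, 4.67, 4.10 and 3.25, the only negative member with a change of -1.16 ± 0.36 (-1.45 to -0.68 with 1 sample left out). CTT1, the cytosolic catalase, and DDR2, a stress-induced gene, had 0.90 ± 0.46 and 1.37 ± 0.57 with overlapping samples, and DDR2 had 0.67 with the authors' table. The sample at 10.5 g/L was the highest of the 6 for 6 of the 10 genes, and without it the median was 0.87.

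Ribosome biogenesis factors assemble the ribosomal subunits. All 11 named members, of 94 on the list, had a negative change, with a median of -0.63 and a range of -1.18 to -0.29, and 3 met the unadjusted criterion. UTP6, of the small-subunit processome, had log2 signals of 1.46, 1.67, 1.30, 1.25, 0.65 and 0.98, a change of -0.80 ± 0.23 (limma, adjusted p = 0.196). BMS1, a GTPase of small ribosomal subunit assembly, had 2.96, 3.21, 3.08, 2.87, 2.45 and 2.00, a change of -0.98 ± 0.30. UTP9 had -1.18 ± 0.42 (-1.29 to -0.75 with 1 sample left out). The list's median deviation from each gene's own V5 mean was 0.39, 0.27, -0.26, 0.03, -0.24 and -0.24 over the 6 samples. The sample at 38.4 g/L was the highest for 7 of the 11, and without it the median was -0.43.

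Amino acid and ammonium transport gave a median change of -0.43 over 8 named genes, led by DIP5, the permease for acidic amino acids at -1.10 ± 0.36. The median was -0.25 without the V5 sample at 10.5 g/L and -0.68 without the one at 38.4 g/L. Of 6 peroxiredoxin, thioredoxin and related genes 0 met the unadjusted criterion, and their median of 0.11 was -0.07 to 0.27 with 1 V5 sample left out. Of 4 sterol and fatty acid genes, MCR1, a mitochondrial cytochrome b5 reductase, had 0.92 ± 0.34, and the median of 0.02 was -0.15 to 0.29 with 1 V5 sample left out.

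**Figure D3:**
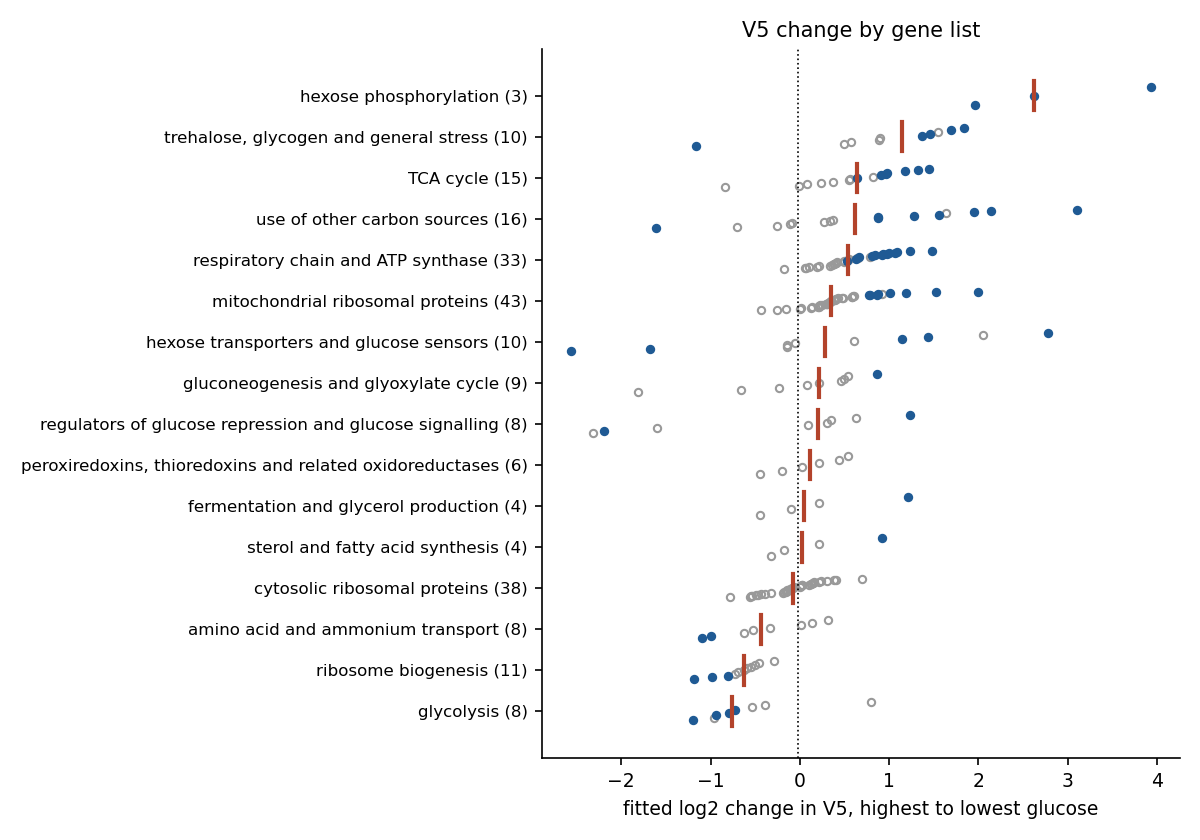
Fitted log2 change in V5 from 38.4 to 7.4 g/L (x) for the named members of each gene list (rows, number named in brackets), with filled dots for an unadjusted limma p under 0.05, open dots for the rest, red bars for list medians and a dotted line at the median of all probes, -0.02. Medians run from 2.62 for hexose phosphorylation down to -0.76 for glycolysis.

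Outside the lists, the named genes with the smallest p in the higher direction included further mitochondrial proteins. ETR1, the enoyl reductase of mitochondrial fatty acid synthesis, had log2 signals of 0.94, 1.41, 1.48, 1.66, 2.32 and 2.32, a change of 1.30 ± 0.24 (SE, n = 6; limma, adjusted p = 0.0759). KGD4, a subunit of alpha-ketoglutarate dehydrogenase, had 0.37, 0.65, 0.81, 1.09, 1.91 and 1.47, a change of 1.30 ± 0.28. POR1, the porin of the outer mitochondrial membrane, had 3.06, 3.03, 3.18, 3.37, 3.90 and 3.84, a change of 0.92 ± 0.21. In all 3 the low-glucose samples lay above the other 4 and the middle samples between the ends. IRS4, a regulator of phosphoinositide levels, HFD1, a fatty aldehyde dehydrogenase, SFA1, an alcohol and formaldehyde dehydrogenase, and ATG40, a receptor for autophagy of the endoplasmic reticulum, had changes of 1.23, 1.03, 1.31 and 1.16. With the authors' table HFD1 had 0.62 and ATG40 0.70.

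In the lower direction the named genes with the smallest p included genes of ribosome assembly and of nucleotide and amino acid synthesis. RSA4, a factor of large ribosomal subunit assembly, had log2 signals of 3.18, 2.63, 2.25, 2.61, 1.97 and 1.63, a change of -1.27 ± 0.32 (SE, n = 6; limma, adjusted p = 0.156). IMD3, an IMP dehydrogenase of GTP synthesis, had 2.60, 1.98, 1.77, 2.00, 1.38 and 1.39, a change of -1.03 ± 0.27. HIS1, the first enzyme of histidine synthesis, had 5.17, 4.68, 4.58, 4.46, 3.89 and 4.30, a change of -0.92 ± 0.26. For these genes the low-glucose samples lay below the rest and the sample at 38.4 g/L was the highest. CLB1, a mitotic cyclin, GCD14, a subunit of a tRNA methyltransferase, MCH5, a riboflavin transporter, IZH2, a membrane protein of zinc homeostasis, and AAD10, an aryl-alcohol dehydrogenase homolog, had changes of -0.97, -1.11, -1.52, -1.30 and -1.38. With the authors' table CLB1 had -0.62, GCD14 -0.45 and MCH5 -0.88. PUT1, proline oxidase, had a change of -3.91 that rested on signals of -4.46 and -4.74 at low glucose with 2 spot values under the floor, and the authors' table gave 0.36. COM2, a zinc-finger protein, had -1.67, and 0.22 with that table.

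**Figure D4:**
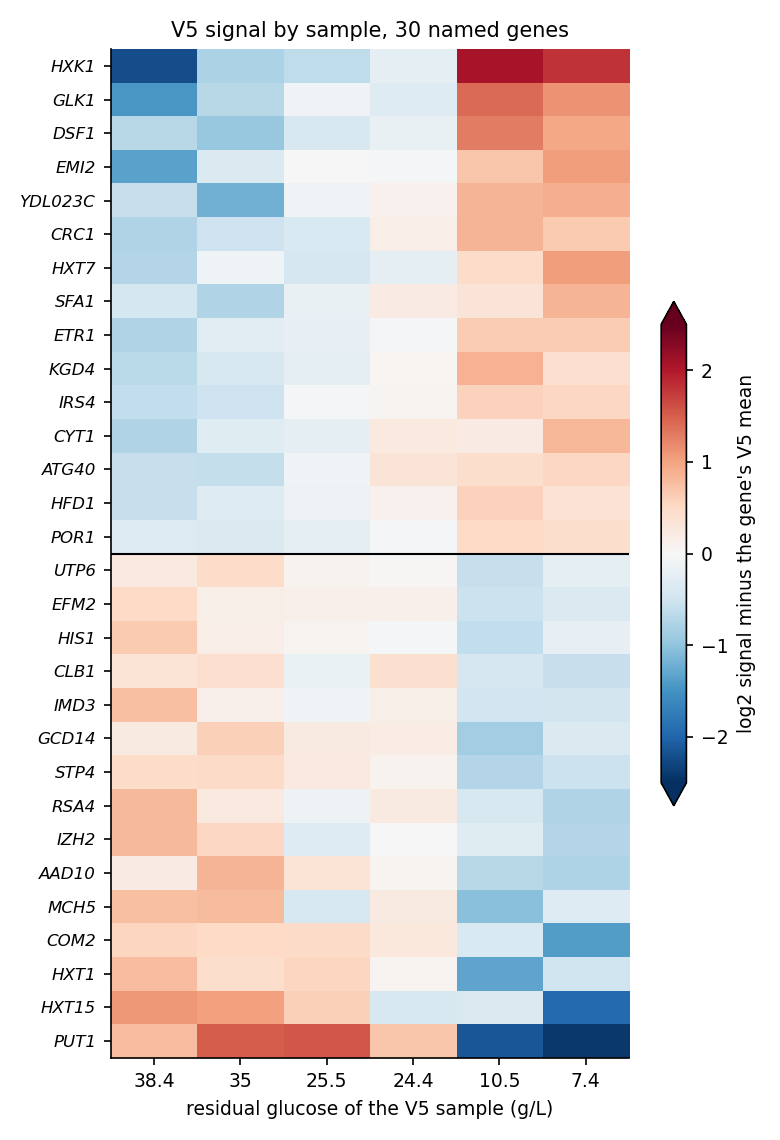
V5 log2 signal minus the gene's V5 mean (colour, clipped at the ends of the bar) in the 6 RNA samples (columns, residual glucose in g/L) for 30 named genes, 15 with the smallest limma p in each direction (rows, ordered by change). The columns at 10.5 and 7.4 g/L differ most from the rest, and those at 25.5 and 24.4 g/L are near the mean for most genes.

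The shape of the trend was described with means of 3 levels of 2 samples each. For the 128 named probes that met the unadjusted criterion in the higher direction, the median step was 0.33 from the high level (38.4 and 35.0 g/L) to the middle level (25.5 and 24.4 g/L), and 0.54 from there to the low level (10.5 and 7.4 g/L). The middle level lay on the same side of the high level as the low level did for 118 of them, and the second step was the larger for 91. For the 66 in the lower direction the median steps were -0.29 and -0.52, with 64 on the same side and 49 with the larger second step. A line favours probes of this kind, so these counts describe the selected probes. The second step also covers a wider range of glucose than the first. A straight line would itself give a larger second step, so the steps do not show a steeper trend at low glucose. With the 2 lowest glucose points of each strain left out, no probe was called by limma and 311 met the unadjusted criterion. The HXK1 line through the remaining V5 samples, extended to 7.4 g/L, gave 3.29 with an adjusted p of 0.922 (limma).

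The same slopes were estimated for V5.TM6*P and compared within the fit. In V5.TM6*P no probe was called and 377 (5.96%) met the unadjusted criterion, against 766 (12.1%) in V5, and among named probes the shares were 5.22% and 18.4%. The difference of the slopes was called for no probe, and 517 (8.17%) met the unadjusted criterion for it. Among named probes this slope was higher in V5 for 8.36% and lower for 3.51%. HXK1 had a change of -0.28 in V5.TM6*P, EMI2 -0.56 and GLK1 0.05. The differences were 4.22 ± 0.63, 2.52 ± 0.40 and 2.57 ± 0.57 (SE, 6 samples per strain), with adjusted p-values of 0.221, 0.221 and 0.422 (limma). With the authors' table the difference was called for HXK1 and EMI2 at 4.77 and 2.84. No V5 trend was thus called different from that of V5.TM6*P in the fit of 12 samples. HXT7 had -0.29 and HXT1 -0.23 in V5.TM6*P, whose signal on these probes does not come from the native genes. STP4, a zinc-finger protein, had negative changes in both strains, with -1.23 in V5 and -1.65 in V5.TM6*P (difference 0.42, adjusted p = 0.8, limma). COM2 had -1.67 and -1.34, but its V5 change was 0.22 with the authors' table.

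**Figure D5:**
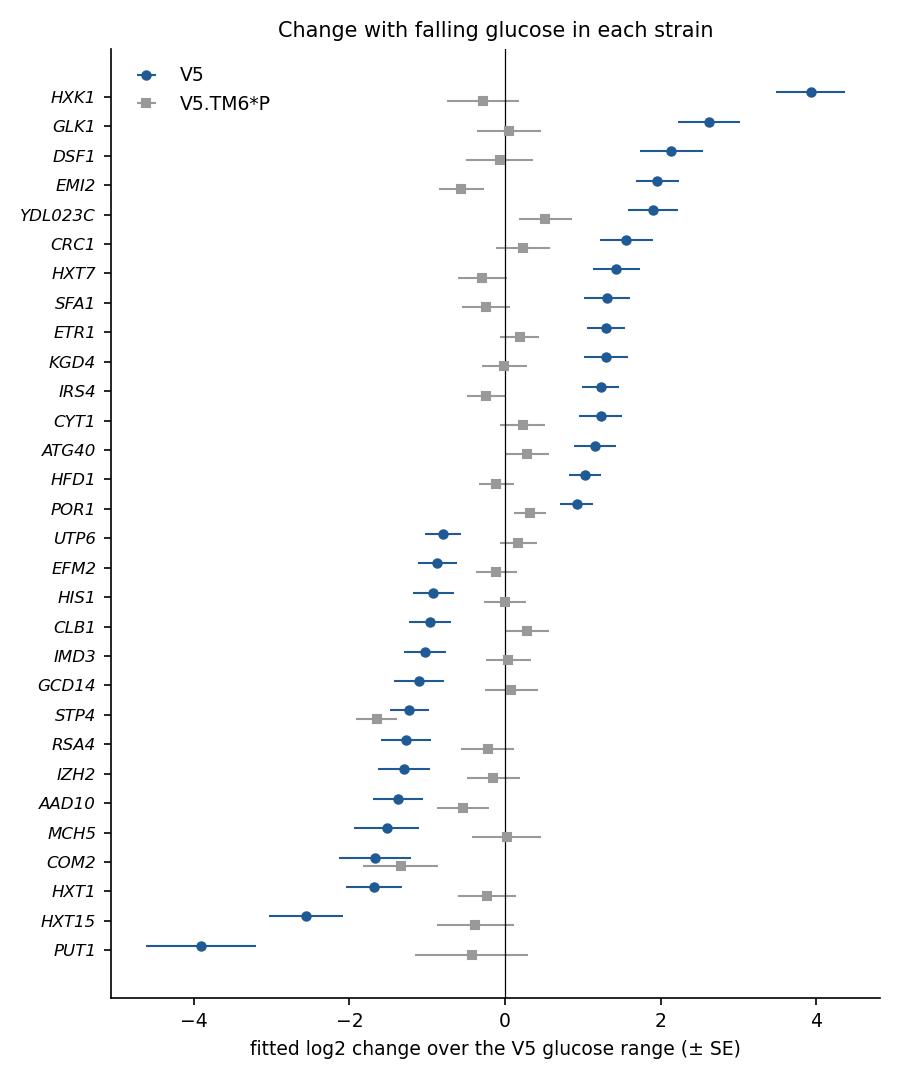
Fitted log2 change over the V5 glucose range (x, bars are ± SE) in V5 (circles) and V5.TM6*P (squares) for the 30 named genes of the plot by sample. V5.TM6*P lies near 0 for most genes, at -0.28 for HXK1 against 3.93 in V5, and beside V5 for STP4 and COM2.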

How the data were processed

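Each array file that the authors deposited gives the median pixel intensity of every spot and of its local background, on a linear scale with no background subtracted (radioactive cDNA, PhosphorImager and Imagene, per the methods). The authors' table of the series, also deposited, holds background-subtracted intensity values after a scaling that is not given in the sources used here, with column medians of 1.361 to 1.542 and 5.04% of values under 0.1. Of 9600 spots, 7477 are in that table, standing for 6330 probes, 1147 of them as pairs. Here the background median was subtracted, values under 0.1 were set to 0.1 (1.47% of V5 values), log2 was taken, paired spots were averaged (their SD was 0.37), each array was centred on its median and each sample's 2 arrays were averaged. The order of the steps is that of the study's methods, but the floor of 0.1 was set on unscaled intensities with array medians of 12.18 to 20.32, lower against the signal than in the authors' table, so dim genes can differ between them. The number of arrays limits the precision. Rows of the table were matched to spots by place on the filter (r of 0.777 to 0.902 per array).

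The files carry no gene names. Names were assigned by recomputing the factor and base expression of each probe from the authors' table and matching them to the study's own gene tables, where 711 of 711 and 130 of 130 genes matched different probes by value and 209 of 209 by value and place (161 by value alone). HXT1, HXT4 and HXT6 were named by factor and place. In all 1053 probes were named, 988 of them found in RefSeq by locus tag, and 75 are marked dubious.

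limma 3.58.1 (R 4.3.3, statmod 1.5.0) fitted an intercept and a slope on glucose for each strain over 12 RNA samples. Adjustment was by Benjamini-Hochberg over 6330 probes. Named genes are those called, the 15 with the smallest p in each direction, genes that the study names in its account (10 of 15 have a probe), and from each list the member with the smallest p in each direction and the brightest, with further members where a list is described. The text describes some of the genes so picked and the counts hold the others. For 1 further gene no result is reported here. The members and lists were chosen with earlier results of these data known. Alternatives changed the source of values, floor, dim-probe filter, background correction (normexp, offset 50), normalization, flagged spots, variance model, repeated arrays, glucose scale, chromosome X, samples and pairing. Promoters were not searched for motifs, since no promoter sequence was at hand. Other tools were Python 3.11.15, numpy 2.4.6, pandas 2.3.3 and matplotlib 3.10.9. Sampling points numbered alike in the strains did not deviate together, so the strains were not paired.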

Additional observations from a re-analysis of the deposited data

Results flagged for a closer look

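Among the 70 genes looked at for a V5 sample far from the other 5, 2 were found, and chance alone marks about 5% of such groups. CAT8 lay at -4.66 on the log2 scale at 7.4 g/L and between -1.89 and -1.16 in the other samples, and 1 spot value of that sample was under the floor. ADH3, the mitochondrial alcohol dehydrogenase, lay at 5.25 at 10.5 g/L and between 6.20 and 6.40 in the others, with no value under the floor.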

How the results depend on the processing

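The count of V5 calls depends on the fit, and the fit of all arrays counted the arrays of an RNA sample as nearly independent (correlation 0.045). The count was 1, and became 142 (61 higher, 81 lower) with all 24 arrays and the RNA sample as a random block, 99 (15 and 84) with normexp, 123 (63 and 60) among 3165 bright probes, 83 (42 and 41) with a variance trend, 13 with spots marked empty left out, 8 with the authors' table, 7 without a floor, 6 with a floor of 1 and 4 on log2 of glucose. It was 0 between the lowest and highest glucose level (703 at an unadjusted p under 0.05), with the 6 V5 samples alone (712) and without the 2 lowest points (311). Leaving out 1 RNA sample gave 0 to 4. Quantile normalization and centring chromosome X each left 1. HXK1 was called in 11 of 14 other settings; its adjusted p was 0.0625 between levels, 0.29 in V5 alone and 0.922 without the lowest points. The slope difference was called for 5 probes with all arrays, 4 among bright probes, 2 with the authors' table, 2 with a variance trend and for 0 in each fit that left out 1 sample (0 to 0). With the sampling point as a replicate block it was called for 0 (484 at an unadjusted p under 0.05). The strains share only these numbers, since their deviations correlated at 0.018 to 0.041. The cause of these differences was not tested.

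Of 70 named genes, 50 kept their sign in all settings. With the authors' table the change became 0.36 for PUT1, 1.81 for HXT15, 0.22 for COM2, 0.10 for MIG2, 0.79 for ATO2, 2.76 for FBP1, 0.06 for MRP2 and ERG3, 0.01 for DLD3, -0.08 for RPS27A, -0.11 for PYK2, -0.41 for BAP3, -0.47 for MMP1 and -0.18 for RPS4A. Without the 2 lowest points, with the line extended over the full glucose range, it became 0.11 for PUT1, -0.94 for STL1, -0.64 for RPS27A, 0.86 for CAT8, 0.03 for ADH3, -0.56 for HAP4, 0.28 for ATP1 and -0.01 for RPS4A. With empty spots missing it was 0.58 for FBP1, -0.02 for YHB1 and -0.03 for RPS4A, without a floor 0.05 for CAT8 and -0.01 for RPS4A, with normexp 0.00 for CAT8, -0.07 for MMP1, -0.17 for YHB1 and -0.20 for RPS4A, with quantiles 0.09 for DLD3, on log2 of glucose -0.02 for YHB1 and -0.04 for RPS4A, and with chromosome X centred -0.05 for RPS4A. Leaving out 1 sample gave -2.73 to 0.51 for CAT8, -1.08 to 0.13 for ADH3, -0.36 to 0.01 for ATP1, -0.65 to 0.93 for BAP3, -0.34 to 0.22 for DLD3, -0.42 to 0.10 for ERG3, -0.14 to 0.51 for MMP1, -0.18 to 0.23 for YHB1 and -0.29 to 0.39 for RPS4A. Signals near the floor limit the dim probes.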

Other observations

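Most probes with a V5 trend at the unadjusted criterion carry no gene name here, 225 of 353 in the higher and 347 of 413 in the lower direction. The second smallest adjusted p of the V5 trend, 0.0583 (limma), was shared by 8 probes, EMI2, GLK1 and 6 without a name. Of these 6, 2 were higher at low glucose, with changes of 1.76 and 2.46, and 4 were lower, with changes between -3.42 and -1.30. Probes without a name were placed on a chromosome by the nearest named probes in the inferred print order. Chromosome and place in the print order therefore cannot be told apart. In all 6 V5 samples the median log2 signal of the 386 probes placed on chromosome X lay above that of the other chromosomes, by 0.28, 0.53, 0.53, 0.31, 0.57 and 0.33 in order of falling glucose. The median V5 change of these probes was -0.00, and 9.07% of them met the unadjusted criterion.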
